A study of Mus musculus with 12 samples.

Results

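Cholesterol synthesis and its regulation by SREBP2 were followed in the mouse jejunum through 28 genes: the enzymes that build cholesterol from acetyl units, the transcription factor SREBP2 with the proteins that process it, and 2 further SREBP2 targets. The rule names the members and uses no measured value, though the list was drawn up with earlier results of these data known. They were found on the array through the accession of each probe. All 28 were measured, by 50 probes, among 46523 genes and unnamed probes on the array, of which 27566 had enough signal to be tested. Each of the 28 was well above background on all 12 arrays.

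RNA came from male mice of 2 genotypes, 3 mice per group, with 1 array for each. Wild-type and IAP knockout mice each received either vehicle or IIAEK, which makes 4 groups. IAP stands for intestinal alkaline phosphatase, an enzyme of the brush border, and the knockout is Akp3-/-, without the gene of one form of it; the labels name no strain. All mice were 7 weeks old at the start, were dosed by mouth once a day and were fasted for 8 h before the jejunum was taken. IIAEK is a pentapeptide, named by the letters of its amino acids and described in the labels as lowering cholesterol. It was given for 14 days at 600 mg/kg body weight per day in the vehicle, carboxymethylcellulose sodium salt at 5 g/L, which the controls received alone; 1 label field of the treated mice counts the 14 in weeks, against the titles and the protocol. The comparisons ask how the peptide acts on this pathway and whether its effect differs without Akp3.

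Cells make cholesterol by condensing acetyl units to mevalonate, converting mevalonate to isoprenoid diphosphates, joining these to squalene, closing squalene to lanosterol and trimming lanosterol to cholesterol. SREBP2 is held in the endoplasmic reticulum by Scap and the Insig proteins while sterols are plentiful. When sterols fall, Scap carries it to the Golgi, where the proteases encoded by Mbtps1 and Mbtps2 release the part that enters the nucleus and binds sterol regulatory elements, usually together with the factors NF-Y and Sp1. In the small intestine, absorbed and newly made cholesterol both feed this control, and the enzymes commonly move together as a set.

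The upstream sequences below are those of 4 members: Hmgcs1, the one member whose window holds the sterol element searched, and Msmo1, Idi1 and Mvd, enzymes whose wild-type values lay apart in opposite directions. They are the 180 bases before the annotated start, from RefSeq on GRCm38.p6, written 5′ to 3′ along the gene with motif matches in capitals. Hmgcs1 is at chr13:119690171-119690350 on the plus strand, Msmo1 at chr8:64733579-64733758 on the minus strand, Idi1 at chr13:8885426-8885605 on the plus strand and Mvd at chr8:122443423-122443602 on the minus strand.
Hmgcs1: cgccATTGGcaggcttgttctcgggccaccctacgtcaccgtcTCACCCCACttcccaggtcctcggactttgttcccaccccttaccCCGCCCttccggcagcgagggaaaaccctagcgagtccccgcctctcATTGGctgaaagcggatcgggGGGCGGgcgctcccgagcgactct
Msmo1: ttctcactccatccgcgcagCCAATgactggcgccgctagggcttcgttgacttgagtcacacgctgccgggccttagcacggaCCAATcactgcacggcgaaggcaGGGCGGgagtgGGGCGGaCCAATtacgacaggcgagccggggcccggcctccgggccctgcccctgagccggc
Idi1: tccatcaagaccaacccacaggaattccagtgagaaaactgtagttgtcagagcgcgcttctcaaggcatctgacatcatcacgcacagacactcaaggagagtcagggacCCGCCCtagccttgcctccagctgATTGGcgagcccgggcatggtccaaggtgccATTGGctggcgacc
Mvd: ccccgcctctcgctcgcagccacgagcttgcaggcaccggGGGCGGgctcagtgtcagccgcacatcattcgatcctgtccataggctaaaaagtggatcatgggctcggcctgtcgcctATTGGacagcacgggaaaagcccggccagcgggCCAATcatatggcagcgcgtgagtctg

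In capitals are matches to a sterol element (TCACNCCAC), to the CCAAT box that NF-Y binds (CCAAT) and to the GC box that Sp1 binds (GGGCGG), on either strand, so that ATTGG and CCGCCC are the same boxes read on the other strand. The sterol element was searched in 29 windows of 250 upstream bases from the 23 members with an entry, and 1 window held it (3.45%, against 1.05% of all 32851 windows). That window is the one of Hmgcs1, where TCACCCCAC begins 137 bases before the start. A CCAAT box was present in 20 of the 29 windows (69%, against 33.8% of all windows), and a GC box in 22 (75.9%, against 32.7%). The E-box CACGTG, which SREBPs can also bind, was in 5 (17.2%, against 6.02%). In the printed stretches, Msmo1 has CCAAT boxes at 160, 96 and 55 bases before the start, Idi1 at 45 and 14, and Mvd at 60 and 27. Members whose levels lay apart in opposite directions, as described next for Msmo1 and Mvd, thus both hold CCAAT and GC letters close to their starts. These matches describe letters only and show no binding.

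Levels are log2 signals of a gene's brightest probe relative to the 75th percentile (P75) of its array, so that 0 is the P75 and 1 unit is a doubling; they are compared between arrays, not between genes. Over the 12 arrays the P75 lay between 574.9 and 814.9 intensity units, and the share of spots well above background was 59.99% to 67.1%. Akp3 was below background on all 6 knockout arrays (-5.96 to -7.33) and was detected on 2 of 3 wild-type vehicle arrays and 3 of 3 wild-type IIAEK arrays. On wild-type vehicle replicate 3 it was at -6.42, within the knockout range. Akp3 therefore does not check the label of that array. All 9 enterocyte markers, such as villin and the apolipoproteins, were detected on every array. Wild-type IIAEK replicate 3 stands apart. The summed level of 9 exocrine pancreas markers was 11.16 there and 7.56 on knockout vehicle replicate 3, against 2.06 to 4.62 on the other 10 arrays. Many member values it enters are given without it too. The markers, the counts of groups that do not overlap and the genes other than the members are given with all arrays only. The arrays lie on 2 slides, each also its own scan. Slide 1 holds the wild-type replicates numbered 1 and the knockout replicates numbered 1 and 2, so IIAEK in wild type is 1 array against 1 on slide 1, and IIAEK in the knockout is 1 against 1 on slide 2.

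**Figure D1:**
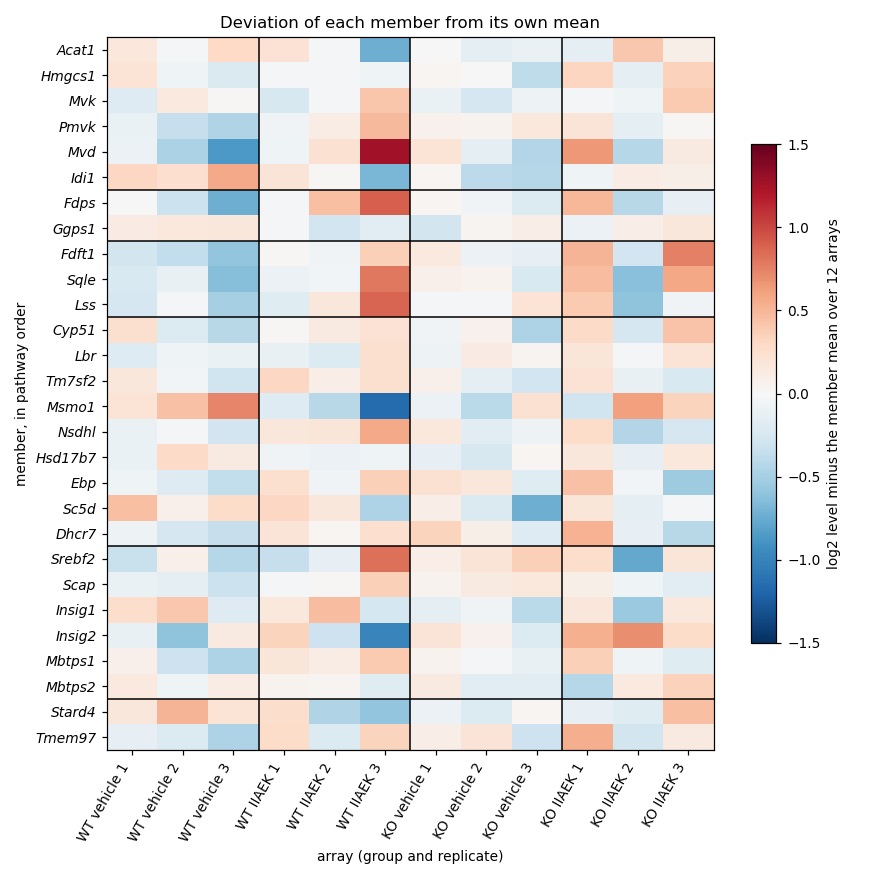
Heat map of the 28 members (rows, in pathway order, lines between roles) on the 12 arrays (columns). Colour is the log2 level minus that gene's mean over the 12 arrays. Wild-type IIAEK replicate 3 has the highest level of 11 members and the lowest of 5, and wild-type vehicle replicate 3 the highest of 3 and the lowest of 9.

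The extremes were unevenly spread over the arrays. Of the 28 members, 11 had their highest and 5 their lowest level on wild-type IIAEK replicate 3, where 14.6% and 18.2% of all genes tested had theirs. Wild-type vehicle replicate 3 held the lowest level of 9 members and the highest of 3, against 9.75% and 12.9% of all genes. Both arrays enter the wild-type comparison, from opposite sides.

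IIAEK was first compared with vehicle in wild type. Enzymes of the pathway lay on both sides of 0: the mevalonate enzymes Mvd and Pmvk and the prenyl synthase Fdps were 1.93-, 1.39- and 1.72-fold higher on IIAEK, while the sterol oxidase Msmo1, the isomerase Idi1 and the sterol carrier Stard4 were 2.07-, 1.45- and 1.47-fold lower. None of the 28 passed in limma after Benjamini-Hochberg adjustment over all genes tested (0 called, beside a background of 0% of all genes), and the smallest adjusted p of a member was 0.369. At an unadjusted p under 0.05 there were 9 members, 5 above 0 and 4 below, where 13% of all genes passed (5.86% above and 7.18% below). Over the members 17 log2 changes were above 0 and 11 below, with a median of 0.26, against -0.06 over all genes.

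Msmo1, the methylsterol oxidase that starts removal of the methyl groups of lanosterol, had the smallest p of the members. Its level was 3.71, 3.95 and 4.24 in wild type on vehicle and 3.31, 3.09 and 2.35 on IIAEK. In the knockout it was 3.42, 3.10 and 3.73 on vehicle and 3.21, 4.12 and 3.84 on IIAEK. All 3 wild-type IIAEK arrays thus lay below all 3 wild-type vehicle arrays, while the knockout groups overlapped. The wild-type log2 change was -1.05 (SE 0.29, limma unadjusted p = 0.00418, adjusted p = 0.369, 0.193 to 0.867 over the alternatives), and a second Msmo1 probe gave -1.05 as well. Leaving out wild-type IIAEK replicate 3 gave -0.77, and the value was -0.40 within slide 1 and -1.37 within slide 2.

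**Figure D2:**
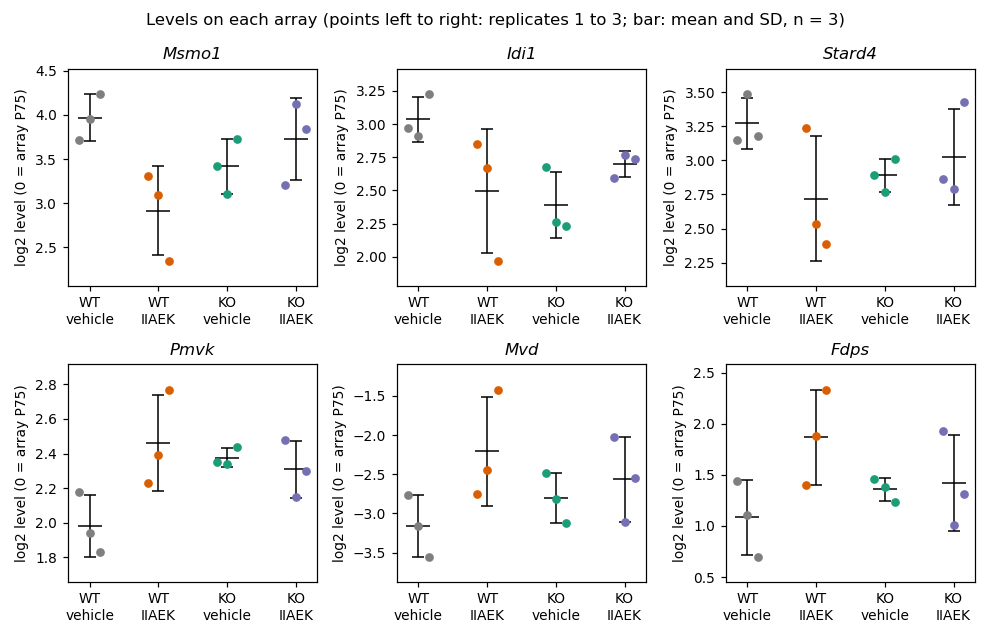
Log2 level (vertical axis, 0 is the P75 of the array) of Msmo1, Idi1, Stard4, Pmvk, Mvd and Fdps on each array, by group; points are replicates 1 to 3 from left to right, bars the mean and SD of 3. In wild type, Msmo1 spans 3.71 to 4.24 on vehicle and 2.35 to 3.31 on IIAEK, and wild-type IIAEK replicate 3 is the lowest of its group for Msmo1, Idi1 and Stard4 and the highest for Pmvk, Mvd and Fdps.

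The mevalonate arm was split. Its 6 members (Acat1, Hmgcs1, Mvk, Pmvk, Mvd and Idi1) had 3 changes above 0 and 3 below. Of these, Hmgcs1 at -0.01 and Mvk at 0.07 lay close to 0. A second Mvk probe, also well above background on all arrays, gave 0.68. Pmvk, phosphomevalonate kinase, stood at 2.18, 1.94 and 1.83 on vehicle and 2.23, 2.39 and 2.77 on IIAEK. The groups did not overlap, though their nearest arrays were close. The knockout arrays were at 2.35, 2.34 and 2.44 on vehicle and 2.48, 2.15 and 2.30 on IIAEK. Its log2 change in wild type was 0.48 (SE 0.17, limma adjusted p = 0.369), 0.32 without wild-type IIAEK replicate 3, 0.05 within slide 1 and 0.69 within slide 2. A second probe of Pmvk gave 0.61. Mvd, the decarboxylase that makes isopentenyl diphosphate, had levels of -2.77, -3.16 and -3.55 on vehicle and -2.75, -2.45 and -1.42 on IIAEK. Here the spread on IIAEK was wide (SD 0.70) and replicate 3 lay far above the other IIAEK arrays. The log2 change of Mvd was 0.95 (SE 0.36, limma adjusted p = 0.369), 0.56 without that array, 0.02 within slide 1 and 1.42 within slide 2. Mvd is a dim signal, and normexp background correction brought the change to 0.60. In the knockout Mvd lay at -2.48, -2.82 and -3.12 on vehicle and -2.03, -3.11 and -2.55 on IIAEK, and those groups overlapped.

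Idi1, which isomerises isopentenyl diphosphate to its allylic form in the step after Mvd, lay the other way. In wild type its levels were 2.97, 2.91 and 3.23 on vehicle and 2.85, 2.67 and 1.97 on IIAEK. Knockout levels were 2.68, 2.26 and 2.23 on vehicle and 2.59, 2.77 and 2.74 on IIAEK. The wild-type vehicle arrays are therefore the highest 3 of the 12. The wild-type log2 change was -0.54 (SE 0.22, limma adjusted p = 0.369), -0.28 without wild-type IIAEK replicate 3, -0.12 within slide 1 and -0.75 within slide 2. Hmgcs1, the synthase at the entry of the pathway and the member whose upstream window holds the sterol element, was at 3.23, 2.96 and 2.81 on vehicle and 3.00, 3.00 and 2.97 on IIAEK in wild type. Its log2 change was -0.01 (SE 0.18, limma adjusted p = 0.99). The knockout arrays of Hmgcs1 were at 3.06, 3.04 and 2.65 on vehicle and 3.35, 2.90 and 3.38 on IIAEK, which overlapped.

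The prenyl diphosphate synthases also parted. Fdps, which makes the farnesyl diphosphate that leads to squalene, had wild-type levels of 1.44, 1.11 and 0.70 on vehicle and 1.40, 1.88 and 2.33 on IIAEK. Vehicle replicate 1 was above IIAEK replicate 1, so the groups overlapped. The log2 change was 0.78 (SE 0.28, limma adjusted p = 0.369) with all arrays and -0.05 within slide 1, where the sign turned, against 1.20 within slide 2. Leaving out wild-type IIAEK replicate 3 gave 0.55. Knockout levels of Fdps were 1.46, 1.38 and 1.23 on vehicle and 1.93, 1.01 and 1.31 on IIAEK. Ggps1, which makes geranylgeranyl diphosphate for protein prenylation instead, had a narrow vehicle group in wild type, 1.44, 1.47 and 1.48, above IIAEK at 1.28, 1.03 and 1.14. Its log2 change was -0.31 (SE 0.14, limma adjusted p = 0.383), -0.31 also without wild-type IIAEK replicate 3, -0.16 within slide 1 and -0.39 within slide 2. In the knockout its levels of 1.04, 1.36 and 1.41 on vehicle and 1.22, 1.41 and 1.48 on IIAEK overlapped.

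Fdft1, Sqle and Lss, which make squalene, its epoxide and lanosterol in turn, were all above 0 in wild type, between 0.52 and 0.55, and none had an unadjusted p under 0.05. Without wild-type IIAEK replicate 3 the changes were 0.40, 0.27 and 0.25; slide 1 alone gave 0.30, 0.15 and 0.07. The groups of Fdft1 and Sqle did not overlap. Of the 9 enzymes from lanosterol to cholesterol, 6 were above 0 and 3 below, with a median of 0.25. Nsdhl, the dehydrogenase that acts on the sterols that Msmo1 has oxidised, was at -1.24, -1.17 and -1.43 on vehicle and -0.98, -0.96 and -0.58 on IIAEK. These groups did not overlap, and the log2 change was 0.44 (SE 0.20, limma adjusted p = 0.383), with 0.31 without wild-type IIAEK replicate 3, 0.26 within slide 1 and 0.53 within slide 2. The knockout levels of Nsdhl, -0.99, -1.31 and -1.22 on vehicle and -0.87, -1.59 and -1.40 on IIAEK, overlapped. Msmo1 and Nsdhl serve neighbouring steps of one conversion, and their wild-type differences had opposite signs. Lbr and Tm7sf2, which both encode a reductase that acts just after Cyp51, differed by 0.10 (SE 0.15) and 0.27 (SE 0.17). The remaining 5 enzymes of this stretch (Cyp51, Hsd17b7, Ebp, Sc5d and Dhcr7) lay between -0.26 and 0.39.

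Among the sterol handling targets, Stard4, a carrier that moves cholesterol between membranes, stood at 3.15, 3.49 and 3.18 on vehicle and 3.24, 2.53 and 2.39 on IIAEK in wild type. IIAEK replicate 1 was within the vehicle group and the others below it. The log2 change was -0.55 (SE 0.24, limma adjusted p = 0.374), but 0.10 within slide 1 against -0.88 within slide 2. Leaving out wild-type IIAEK replicate 3 gave -0.39, and the second Stard4 probe gave -0.05. Its knockout levels were 2.89, 2.77 and 3.01 on vehicle and 2.86, 2.79 and 3.43 on IIAEK. Tmem97, a sterol-responsive membrane protein, differed by 0.40 in wild type and had no unadjusted p under 0.05.

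**Figure D3:**
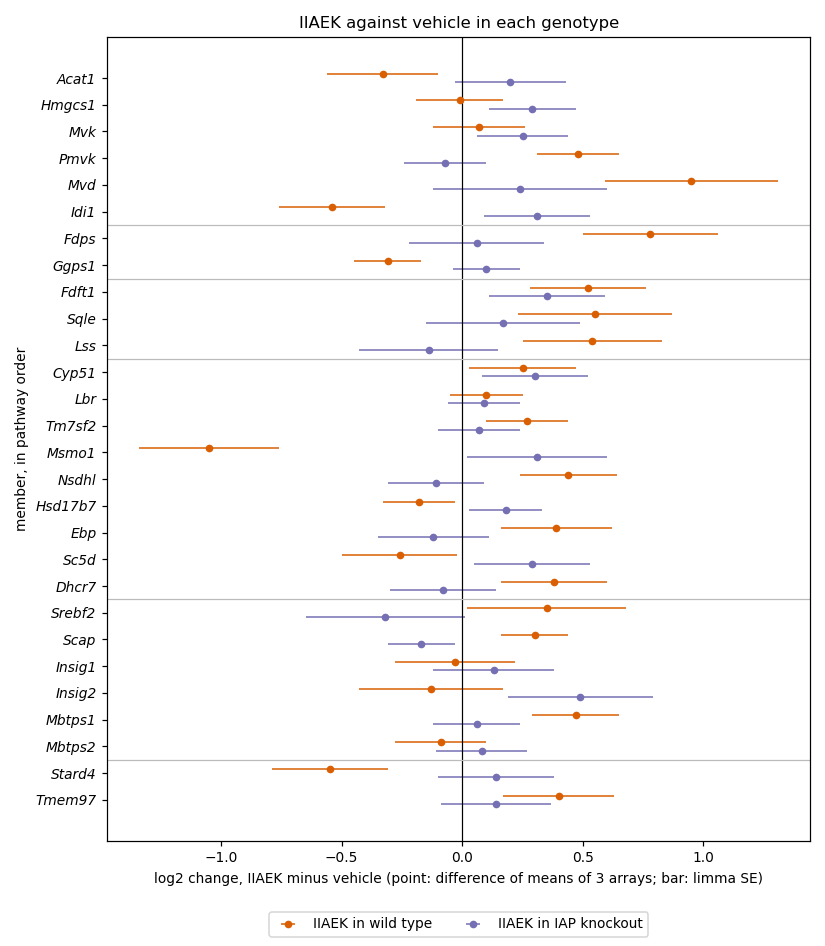
Log2 change of each member, IIAEK minus vehicle (horizontal axis; points are differences of the means of 3 arrays, bars the limma SE), in wild type and in the IAP knockout. Wild-type changes run from -1.05 for Msmo1 to 0.95 for Mvd, and knockout changes from -0.32 for Srebf2 (0.00 without knockout IIAEK replicate 2) to 0.49 for Insig2.

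Counted over the list, the groups did not overlap for 12 members in wild type. IIAEK was higher in 9 (Pmvk, Mvd, Fdft1, Sqle, Nsdhl, Ebp, Dhcr7, Scap and Mbtps1), where 10.6% of all genes did so, and lower in 3 (Idi1, Ggps1 and Msmo1), where 14.7% did. Of the 22 further probes that 15 of the members carry, 20 had the sign of the chosen probe. Markers of other cell types moved in this comparison. All 8 smooth muscle markers were above 0 (median 0.89), with summed levels of 5.31 to 6.00 on vehicle and 6.10 to 6.86 on IIAEK. All 9 exocrine pancreas markers were above 0 (median 2.58), with summed levels of 3.03 to 4.62 on vehicle and 2.71 to 11.16 on IIAEK. Of the 9 enterocyte markers 1 was above 0 (median -0.24), with summed levels of 11.17 to 11.20 on vehicle and 10.75 to 11.09 on IIAEK. Fibroblast and matrix markers were above 0 in 6 of 7 (median 0.81), with summed levels of 5.74 to 6.55 on vehicle and 6.34 to 6.61 on IIAEK. B and plasma cell markers were above 0 in 7 of 8 (median 1.20), with summed levels of 7.56 to 7.89 and 7.05 to 7.72. Paneth cell markers were above 0 in 0 of 5 (median -0.23), with summed levels of 10.26 to 10.36 and 10.03 to 10.23. The part of these cells in the members' values was not tested, and in whole tissue fewer cells of a type and less RNA per cell cannot be told apart.

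The count of 9 rested on single arrays. Without wild-type IIAEK replicate 3, 1 member (Msmo1) had an unadjusted p under 0.05, where 4.2% of all genes did, and without wild-type vehicle replicate 3 it was again 1 (Msmo1, 5.59% of all genes). Without wild-type vehicle replicate 2 the count was 5 (8.84% of all genes), and without wild-type IIAEK replicate 1 it was 12 (16.7%). The median of the members was 0.19 without wild-type IIAEK replicate 3, 0.13 without wild-type vehicle replicate 3, 0.06 within slide 1 and 0.37 within slide 2. Scaling moved the split of the count from 5 above and 4 below (13% of all genes). It was 4 above and 2 below with the median of the array (10.2%), and 6 above and 2 below with quantile normalization (13.6%).

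**Figure D4:**
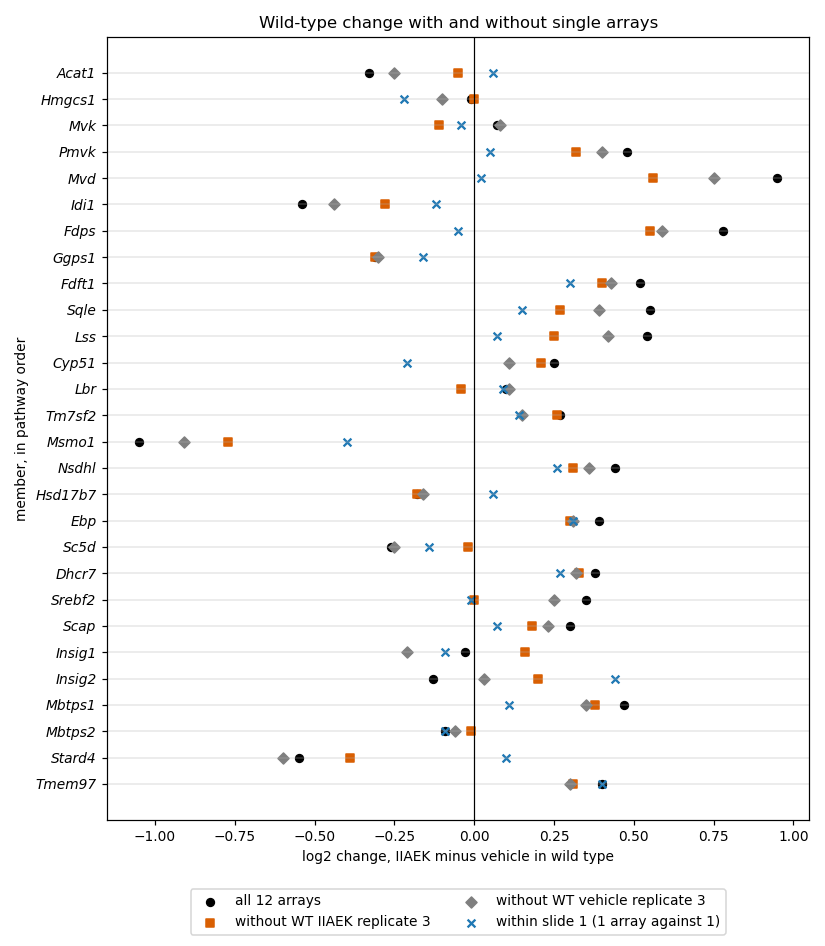
Log2 change of each member in wild type, IIAEK minus vehicle, with all 12 arrays, without either of 2 single arrays, and within slide 1, which holds 1 array of each group. Msmo1 stays below 0 in all 4 (-1.05, -0.77, -0.91 and -0.40), and Mvd falls from 0.95 to 0.02 within slide 1.

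SREBP2 and its processing proteins were compared in the same way. Srebf2, the gene of SREBP2 itself, was at -3.25, -2.84 and -3.35 on vehicle and -3.27, -3.04 and -2.09 on IIAEK in wild type. The groups overlapped and only replicate 3 on IIAEK was high; the log2 change was 0.35 (SE 0.33, limma adjusted p = 0.593) with it and -0.00 without it. In the knockout Srebf2 had -2.82, -2.73 and -2.56 on vehicle and -2.66, -3.69 and -2.74 on IIAEK. Scap, the sterol-sensing escort of SREBP2, was at 1.49, 1.46 and 1.27 on vehicle and 1.56, 1.61 and 1.95 on IIAEK in wild type, which did not overlap. Its knockout levels were 1.64, 1.73 and 1.75 on vehicle and 1.68, 1.52 and 1.42 on IIAEK. The Scap change in wild type was 0.30 (SE 0.14, limma unadjusted p = 0.0591, adjusted p = 0.393), 0.18 without wild-type IIAEK replicate 3, 0.07 within slide 1 and 0.42 within slide 2.

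Of the proteases, Mbtps1, which makes the first cut, had 3.37, 2.98 and 2.83 on vehicle and 3.48, 3.41 and 3.69 on IIAEK in wild type. The log2 change was 0.47 (SE 0.18, limma adjusted p = 0.369), 0.38 without wild-type IIAEK replicate 3, 0.11 within slide 1 and 0.65 within slide 2. Its 3 other probes gave 0.37, 0.36 and 0.45. Knockout levels of Mbtps1, 3.35, 3.27 and 3.18 on vehicle and 3.65, 3.23 and 3.11 on IIAEK, overlapped. Mbtps2, which makes the second cut, differed by -0.09 (SE 0.19) in wild type and 0.08 (SE 0.19) in the knockout, so the proteases were not called in either genotype.

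The Insig genes encode the proteins that retain Scap, and Insig1 is itself an SREBP target. Insig1 had -1.82, -1.68 and -2.28 on vehicle and -1.92, -1.62 and -2.35 on IIAEK in wild type, while the knockout arrays lay at -2.23, -2.13 and -2.49 on vehicle and -1.91, -2.64 and -1.92 on IIAEK. The groups overlapped within each genotype, with log2 changes of -0.03 (SE 0.25) and 0.13 (SE 0.25). Without wild-type IIAEK replicate 3 the wild-type change of Insig1 was 0.16. Insig2 was at 2.16, 1.67 and 2.40 on vehicle and 2.60, 1.96 and 1.28 on IIAEK in wild type, a wide spread on IIAEK. In the knockout it was at 2.46, 2.33 and 2.07 on vehicle and 2.80, 2.97 and 2.55 on IIAEK, where every IIAEK array lay above every vehicle array. The Insig2 change was -0.13 (SE 0.30) in wild type, with 0.20 without wild-type IIAEK replicate 3, 0.44 within slide 1 and -0.42 within slide 2, and 0.49 (SE 0.30, limma adjusted p = 0.91) in the knockout, with 0.38 without knockout vehicle replicate 3.

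**Figure D5:**
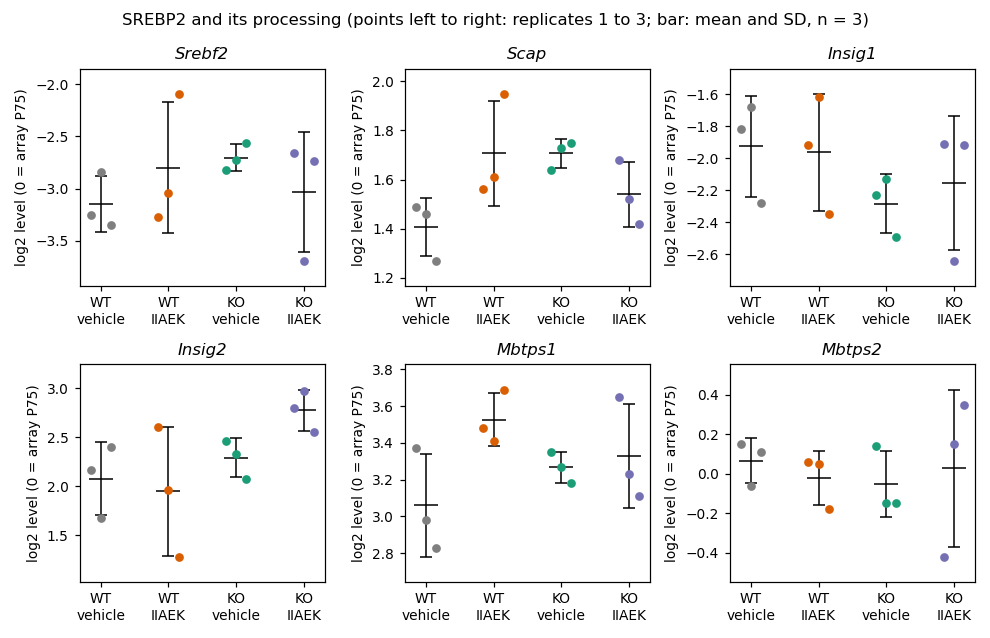
Log2 level (vertical axis, 0 is the P75 of the array) of Srebf2, Scap, Insig1, Insig2, Mbtps1 and Mbtps2 on each array, by group; points are replicates 1 to 3 from left to right, bars the mean and SD of 3. Insig2 in the knockout spans 2.07 to 2.46 on vehicle and 2.55 to 2.97 on IIAEK.

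In the knockout, IIAEK was compared with vehicle in the same way. No member had an unadjusted p under 0.05, where 4.42% of all genes did, and 0 passed the adjusted test (0% of all genes). Changes were above 0 for 21 members and below for 7, between -0.32 and 0.49, with a median of 0.13 against 0.01 over all genes. The lowest, Srebf2, was at 0.00 without knockout IIAEK replicate 2. The groups did not overlap for 2 members, Mvk and Insig2, both higher on IIAEK, where 7.55% of all genes did not overlap. Mvk, mevalonate kinase, acts later in the mevalonate arm than Hmgcs1, though not directly after it. Of the sterol reductases, Lbr and Tm7sf2 gave 0.09 (SE 0.15) and 0.07 (SE 0.17). Of 8 B and plasma cell markers, 6 of them well above background on every array, 0 were above 0 (median -3.39). Their summed level did not follow that median: it was 7.05 to 7.75 on vehicle and 6.98 to 7.90 on IIAEK, which overlapped. Exocrine pancreas markers were above 0 in 0 of 9 (median -2.48), with summed levels of 2.32 to 7.56 and 2.06 to 3.02. Paneth markers were above 0 in 4 of 5 (median 0.56). The part of these cells in the members' values was not tested. The median of the members was 0.05 within slide 1 and 0.17 within slide 2. It was 0.03 without knockout IIAEK replicate 1 and 0.21 without knockout IIAEK replicate 2. Without knockout vehicle replicate 3, the array with the second highest pancreas sum, the median was 0.07 and 18 members were above 0.

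The difference between the genotypes in their response was tested as an interaction, the knockout change minus the wild-type change. Msmo1 had the widest gap, 1.36 (SE 0.42, limma unadjusted p = 0.00718, adjusted p = 0.31), with 0.31 in the knockout against -1.05 in wild type. Idi1 followed with 0.85 (SE 0.31, adjusted p = 0.31), while Pmvk at -0.54 (SE 0.23, adjusted p = 0.323) and Scap at -0.47 (SE 0.20, adjusted p = 0.324) went the other way. These 4 were the members at an unadjusted p under 0.05, where 15.1% of all genes passed, and 0 passed the adjusted test (0% of all genes). Members above 0 numbered 13 and below 0 numbered 15, their median being -0.09 against 0.06 over all genes. Within slides 1 and 2 the interaction of Msmo1 was 0.81 and 1.48, that of Idi1 0.33 and 1.26, that of Pmvk -0.08 and -0.83 and that of Scap -0.15 and -0.74. Without wild-type IIAEK replicate 3, Msmo1 gave 1.07 and Idi1 0.59, and these 2 were the count, where 8.08% of all genes passed. Pmvk gave -0.39 and Scap -0.35 without that array. The second Msmo1 probe gave 1.30. Without knockout IIAEK replicate 1 the count was 11, where 24.5% of all genes passed, and without wild-type IIAEK replicate 1 it was 9, where 18.3% did. Cell markers had interactions too: none of 8 smooth muscle markers was above 0 (median -0.89), none of 9 exocrine pancreas markers (median -4.82) and 1 of 8 B and plasma cell markers (median -4.75), while 5 of 5 Paneth markers were above 0 (median 0.79). Their part in the members' values was not tested.

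The genotypes were then compared on each treatment. On vehicle, Idi1 was 1.57-fold and Sc5d, the desaturase near the end of the pathway, 1.46-fold lower in the knockout, and Pmvk 1.31-fold higher. These 3 had an unadjusted p under 0.05, where 11.4% of all genes did, and 0 passed the adjusted test (0% of all genes). The log2 differences, knockout minus wild type, were -0.65 for Idi1 (SE 0.22, limma adjusted p = 0.423), -0.55 for Sc5d (SE 0.24, adjusted p = 0.436) and 0.39 for Pmvk (SE 0.17, adjusted p = 0.435). For Idi1 the value was -0.50 in slide 1 alone, -0.84 in slide 2 alone and -0.70 when slide was a block. For Sc5d these values were -0.51, -0.91 and -0.67, and for Pmvk 0.17, 0.55 and 0.40. Without knockout vehicle replicate 3, the array with the second highest pancreas sum, Sc5d differed by -0.32 and the count was 1 (Idi1, 8.68% of all genes). Without wild-type vehicle replicate 3 it was 0 (5.99% of all genes). The groups did not overlap for 8 members, where 23.7% of all genes did not: Pmvk, Fdft1, Lss, Srebf2 and Scap were higher in the knockout and Idi1, Ggps1 and Stard4 lower. This comparison shares the wild-type vehicle arrays with the wild-type IIAEK comparison, in which Pmvk and Idi1 had 0.48 and -0.54. Smooth muscle markers were above 0 here as well, 8 of 8 (median 0.72). Their summed level was 5.97 to 6.37 in the knockout against 5.31 to 6.00 in wild type. B and plasma cell markers were above 0 in 7 of 8 (median 2.34), with summed levels of 7.05 to 7.75 against 7.56 to 7.89. Adipose and mesentery markers were above 0 in 5 of 5 (median 0.56) and fibroblast and matrix markers in 6 of 7 (median 0.38). Paneth markers were above 0 in 1 of 5 (median -0.33). The part of these cells in the members' values was not tested.

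On IIAEK, Msmo1 was 1.75-fold and Insig2 1.78-fold higher in the knockout and Nsdhl 1.36-fold lower. Their log2 differences were 0.81 (SE 0.29, limma adjusted p = 0.647), 0.83 (SE 0.30, adjusted p = 0.647) and -0.45 (SE 0.20, adjusted p = 0.647). They were the 3 members with an unadjusted p under 0.05, where 7.66% of all genes passed, and 0 passed the adjusted test (0% of all genes). In no member did the groups separate, where 9.42% of all genes did. Without wild-type IIAEK replicate 3 the count was 0 (3.66% of all genes), Msmo1 differed by 0.52, Insig2 by 0.50 and Nsdhl by -0.32. Within slides 1 and 2 Msmo1 differed by 0.36 and 1.12, Insig2 by 0.29 and 0.94, and Nsdhl by -0.25 and -0.63. The exocrine pancreas markers were lower in the knockout on IIAEK, with 0 of 9 above 0 and a median of -5.06. Their summed levels were 2.06 to 3.02 against 2.71 to 11.16. B and plasma cell markers were above 0 in 1 of 8 (median -2.42) and Paneth markers in 5 of 5 (median 0.41). The part of these cells in the members' values was not tested.

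Averaged over both treatments, Insig2 was the one member at an unadjusted p under 0.05 between genotypes, where 5.37% of all genes passed, and 0 members passed the adjusted test (0.00363% of all genes, a single gene). Its log2 difference was 0.52 (SE 0.21, limma unadjusted p = 0.0301, adjusted p = 0.876), 0.35 without wild-type IIAEK replicate 3, 0.26 and 0.49 within slides 1 and 2, and 0.37 when slide was a block. The 2 other Insig2 probes gave 0.49 and 0.38. Insig2 was not at that p under some alternatives. With slide as a block the members there were Tm7sf2 and Sc5d (9.73% of all genes). Without wild-type IIAEK replicate 3 they were Idi1, Lbr and Sc5d (6.78%), and with the median of the array there were 0 (5.25%). Averaged over both genotypes, IIAEK gave 22 members above 0 and 6 below, with a median of 0.15 against -0.02 over all genes. Mvd at 0.60 (SE 0.26, limma adjusted p = 0.962) and Fdft1 at 0.43 (SE 0.17, adjusted p = 0.962) had an unadjusted p under 0.05, where 3.4% of all genes did, and 0 passed the adjusted test (0% of all genes). Mvd gave 0.05 and 0.99 within slides 1 and 2, and Fdft1 0.19 and 0.75. Without wild-type IIAEK replicate 3 the averaged change of Mvd was 0.40 and that of Fdft1 0.37, and the count was 0 (2.3% of all genes). With normexp correction the averaged change of Mvd was 0.39.

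Other genes around the pathway were taken from a list of 53, of which 50 were tested. With IIAEK in wild type, 24 lay above 0 and 26 below, with a median of -0.04. The adjusted test was passed by 0 of them (0% of all genes). At an unadjusted p under 0.05 there were 9, 4 above and 5 below, where 13% of all genes passed. Of the further synthesis enzymes and electron donors, the scaffold Erg28 differed by -0.19. Of the isoprenoid branches, Rabggta, a subunit of the Rab prenyltransferase, differed by 0.33 and Pdss1, which makes the ubiquinone side chain, by -0.33. Among regulators and cofactors of SREBP, the NF-Y subunit Nfyb differed by -0.57 (SE 0.18, limma adjusted p = 0.369) and Spring1, which supports the first cut of SREBP, by 0.61 (SE 0.25, adjusted p = 0.369). The SREBP targets Acly, which supplies cytosolic acetyl-CoA, and Npc2, a lysosomal cholesterol carrier, were at 0.48 and 0.33. In the group of LXR targets, sterol transport and oxysterols, Ch25h, cholesterol 25-hydroxylase, differed by -0.95 (SE 0.28, limma adjusted p = 0.369). With the same adjusted p, the cholesterol exporter Abca1 differed by -0.71 (SE 0.20). For IIAEK against vehicle in the knockout, 27 of the 50 were above 0 and 23 below. Here 2 had an unadjusted p under 0.05, where 4.42% of all genes did, and 0 passed the adjusted test. These 2 were Ch25h at -0.78 and Fntb at 0.52 (limma adjusted p = 0.91 for both). With IIAEK averaged over genotypes, 2 were at that p, where 3.4% of all genes passed. They were Ch25h at -0.87 and Abca1 at -0.32 (limma adjusted p = 0.962 for both). On vehicle the knockout had 24 above and 26 below wild type, with 4 at an unadjusted p under 0.05 (11.4% of all genes). On IIAEK the knockout had 25 above and 25 below wild type, with 5 at that p (7.66% of all genes). Again 0 passed the adjusted test.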

How the data were processed

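Expression in the jejunum of 12 male mice was measured on 1-colour Agilent arrays (mm9 design, Cy3). Per the file headers, Feature Extraction 10.7.3.1 made each deposited processed intensity, background-subtracted and not scaled between arrays; the deposited median intensity of each spot served for normexp (offset 50). The deposited value table, on the log2 scale, holds, as found from its values, the same signal scaled to the 75th percentile and centred per probe; it was used as an alternative.

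Control spots were left out, log2 processed intensity minus the log2 75th percentile over spots was taken per array, spots of a probe were averaged and probes were named by accession (32991 of 56605 probes). The brightest probe stood for a gene, tested if every array of 1 group or more had it well above background. limma 3.58.1 (R 4.3.3) fitted 4 group means over all 12 arrays, with 7 contrasts and Benjamini-Hochberg adjustment over 27566 genes, threshold 0.05; it was tested on simulated data. No saturated spot was found. Summed marker levels are log2 of the sum of scaled linear signals. The small number of arrays limits the precision. Replicates are taken as separate mice from the titles and design text.

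Members and lists were chosen with earlier results of these data known. Levels on every array were given for members with an unadjusted p under 0.05 in the wild-type, interaction or averaged genotype comparison and for Srebf2, Insig1, Insig2 and Hmgcs1; changes for members at that p in the comparison described and for pairs of like function; ranges or counts for the rest, and 2 genes of smallest p per further list. Alternatives were other scalings, background correction, filters, probe averaging, the deposited table, slide or replicate block, single slides, only the groups compared, and each array left out. Upstream windows came from RefSeq (GRCm38.p6). Some genes of the pathway are not reported here.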

Additional observations from a re-analysis of the deposited data

How the results depend on the processing

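In all alternatives run, 0 members passed the adjusted test in each of the 7 comparisons. The counts at an unadjusted p under 0.05 moved most. Leaving out 1 array at a time, they ranged from 1 to 12 for IIAEK in wild type, 0 to 3 for IIAEK in the knockout, 0 to 4 for the knockout on vehicle, 0 to 7 for the knockout on IIAEK, 2 to 11 for the interaction, 0 to 7 for IIAEK averaged over genotypes and 0 to 3 for the knockout averaged over treatments. The share of all genes at that p moved with them, from 4.2% to 16.7%, 3.33% to 10.4%, 5.99% to 13.5%, 3.66% to 17%, 8.08% to 24.5%, 1.84% to 6.61% and 3.58% to 7.29%, in the same order. The member medians ranged likewise from 0.13 to 0.32, 0.03 to 0.21, 0.05 to 0.14, -0.15 to 0.11, -0.19 to 0.09, 0.08 to 0.18 and -0.02 to 0.06. Scaling to the median of the array gave counts of 1 for the knockout on vehicle (9.8% of all genes) and 2 for the interaction (12.4%). For the knockout averaged over treatments it gave 0 (5.25%). With only the groups compared, the counts were 1 for IIAEK in the knockout (3.36%) and 7 for the knockout on vehicle (15.3%). The interaction count was 2 without a filter on dim probes (8.59%). Normexp correction gave 4 for IIAEK averaged over genotypes (3.56%). Slide as a block gave 2 for the knockout averaged over treatments (Tm7sf2 and Sc5d, 9.73%). Within slide 1 the wild-type median was 0.06, and within slide 2 the medians of the knockout on IIAEK and of the interaction were both 0.15. Within slide 1, which is 1 array against 1, the wild-type sign turned for 8 of the 28 members: Fdps (-0.05) and Stard4 (0.10), and, among members with no unadjusted p under 0.05, Acat1, Mvk, Cyp51, Hsd17b7, Srebf2 and Insig2. The cause was not tested. Same-numbered arrays did not correlate above 0.1 throughout (-0.252 to 0.346 between deviations from group means). The main fit therefore took the numbers as names of mice, not as pairs. With 3 arrays per group, some sharing a slide, these correlations cannot tell whether the mice were paired. With the replicate block the counts were 8 in wild type (12.9% of all genes) and 2 for the interaction (14.8%). Of 929 values of single members under the alternatives, 919 kept direction or stayed within the spread between replicates. Many alternatives cannot move a member's change, such as leaving out an array of a group that is not compared. For members at an unadjusted p under 0.05, keeping direction was enough, as for Mvd in wild type at 0.02 within slide 1. The tally therefore does not measure how stable the sizes are. All members were well above background on every array, yet normexp correction moved dim ones by over 1.5 times: in wild type Mvd went from 0.95 to 0.60 and Srebf2 from 0.35 to 0.16.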
